A study of Mus musculus with 12 samples.

Results

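Stimulated splenic B cells of mice with a conditional deletion of Sub1 were compared with stimulated control cells on 6 one-colour Agilent mouse arrays, out of 12 in the series. The groups were taken from the sample labels. The 3 control samples had the genotype B1-8hi:Sub1fl/fl and the 3 knockout samples B1-8hi:Sub1fl/fl-Mb1-Cre, so that both carried the floxed Sub1 alleles and B1-8hi, a rearranged immunoglobulin heavy chain knocked into its locus that gives specificity for the hapten NP. All 6 samples had been cultured for 72 h with IL-2 at 100 U/mL, IL-4 at 5 ng/mL, IL-5 at 1.5 ng/mL, CD40 ligand at 0.2 ng/mL and NP-ficoll at 0.01 ng/mL. The other 6 arrays held resting cells of the same genotypes and are used here for the shared estimate of spread and for the test of whether a change differed from that in resting cells. Mb1-Cre is a recombinase inserted in Cd79a and active from early B cell development, and the control genotype names no Cre. What follows from losing Sub1, from Cre or from the disrupted Cd79a allele therefore cannot be told apart. The labels give no age, sex or strain background. Whether each replicate was a different mouse is not stated, and the p-values therefore measure how far these samples scatter, which may be technical at least in part.

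Sub1 encodes PC4, an abundant transcriptional coactivator with affinity for single-stranded DNA and a component of chromatin. A B cell that receives antigen, T cell help through CD40 and the cytokines of helper T cells divides and can become a plasma cell. In that transition IRF4, BLIMP-1 and XBP1 replace the B cell program with one of antibody secretion, which needs an enlarged endoplasmic reticulum (ER), more membrane lipid and a large supply of amino acids and energy. The series title names PC4 in B cells, and the design text gives its function and regulation there as the question.

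Levels are given below as log2 signal relative to the 75th percentile of each array, and changes as log2 differences, knockout minus control, with their standard error (SE). A feature is a named gene, represented by its brightest probe, or an unnamed probe. It was called where the limma p-value, adjusted over all 22981 features by Benjamini-Hochberg, was under 0.05. Of the spots, 36.6%, 24.3% and 60.1% were well above background on the control arrays and 64.5%, 42.6% and 76.8% on the knockout arrays (replicates 1 to 3). In each numbered pair the knockout array had more detected spots, and the part of this in the changes below was not tested. Slide 1 held replicates 1 and 2 of each group, and slide 2 held replicate 3. The Y-linked genes Ddx3y and Eif2s3y were detected on both arrays of control replicate 1 and on no other, and Xist was detected on neither of those 2 arrays. Control replicate 1 thus stood apart from the other controls, and the controls did not all come from 1 mouse. Its resting and stimulated arrays shared this pattern, while the main fit treated all arrays as independent. Counts without control replicate 1 are given beside many of the results.

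Sub1, the targeted gene, had levels of 8.19, 7.79 and 8.15 on the control arrays and 6.72, 6.87 and 6.92 on the knockout arrays. The groups did not overlap, and the transcript was 2.31-fold lower in the knockout (change -1.21, SE 0.19, adjusted p = 0.0114). A dimmer Sub1 probe gave -0.88, -2.02 and -0.87 in control and -1.35, -0.88 and -1.25 in knockout cells, and these values overlapped. Which exons were floxed is not given in the labels, and a probe outside the deleted part does not check the deletion. Cd79a, the receptor signalling chain whose locus holds the Cre, had levels of 3.95, 3.37 and 3.70 in control and 3.0, 2.36 and 2.38 in knockout cells, a decrease that passed (change -1.10, SE 0.24, adjusted p = 0.0343). The B cell genes Ms4a1, Cd79b and Cd74 were detected on all 6 arrays, with Ms4a1 (CD20) at 7.57, 7.39 and 7.39 in control and 7.63, 7.62 and 7.24 in knockout cells. Their changes lay between -0.20 and 0.05 with overlapping groups, so B cell transcripts were present on both sides. These genes were picked after their values were seen and do not measure the share of B cells. Of 31 tested B cell identity genes, given below, 2 rose and 2 fell, the latter being Cd24a and Fcer2a. The sample is bulk RNA, in which fewer cells of a type and less RNA per cell cannot be told apart.

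Of 22981 features 796 were called, or 3.46%, with 277 higher (1.21%) and 519 lower (2.26%) in the knockout. Among the 12295 named genes, 184 were higher and 341 lower. The groups did not overlap in 25.0% of all features, and in all 796 called ones. Genes that were higher tended to be dim in control cells: 44 of the 277 higher features were detected on all 6 arrays, against 502 of the 519 lower ones. With detection required on all 6 stimulated arrays, 10617 features were left, with a median change of -0.31, and 117 were called higher and 1365 lower. Lists of well-detected genes below are to be read against this median of -0.31 and not against -0.02. The 2677 features tested only because they were detected on all 3 stimulated knockout arrays held 42 of the higher calls. Changes of at least 4-fold were seen in 93 higher and 51 lower features. With the replicate number as a block, for same-numbered samples that deviated together, 1865 features passed, 825 of them higher, and 795 of the 796 were among them. With limma fitted on the 6 stimulated arrays alone none passed (3829 features had an unadjusted p under 0.05). The count also rested on single libraries. It was 153 without stimulated control replicate 1, 38 without control replicate 1 in both states, 115, 48 and 278 without knockout replicates 1, 2 and 3, and 1457 without stimulated control replicate 2. It lay between 390 and 598 without a single resting array. The split also moved with the scaling. Median scaling, which set the median change of all features at -0.58 in place of -0.02, called 81 higher and 597 lower, and a percentile over spots detected on all 12 arrays, which set it at 0.39, called 1979 higher and 370 lower. Quantile normalization called 312 higher and 234 lower.

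Plasma cell genes were lower in the knockout. Of 14 tested regulators of plasma cell differentiation 7 fell and none rose (median change -0.74, against -0.02 over all features). The 12 detected on all 6 arrays had a median of -1.03, against -0.31 over all features so detected. Irf4, the factor that starts the transition, had levels of 6.07, 5.24 and 5.77 in control and 4.36, 4.08 and 4.30 in knockout cells, and fell by 1.44 (SE 0.22, adjusted p = 0.0114). Prdm1, which encodes BLIMP-1, the repressor of the B cell program, read 3.98, 3.54 and 3.67 against 2.25, 2.33 and 2.36 and fell by 1.42 (SE 0.26, adjusted p = 0.0197). All 3 knockout arrays lay below all 3 control arrays for both genes. Pou2af1, the octamer coactivator OBF-1, was lower by -1.13 (SE 0.18, adjusted p = 0.0116). Xbp1, the factor of the secretory program, read 8.42, 8.08 and 8.56 against 7.34, 7.34 and 7.59, and its change of -0.93 (SE 0.22) was just inside the threshold (adjusted p = 0.0499). Ell2, an elongation factor needed to process secretory heavy chain RNA, and Creb3l2, an ER membrane-bound factor, fell by 1.35 and 1.40 (adjusted p = 0.0288 and 0.0496). The last called regulator, Mzb1, is described with the effector genes. The other 7, Aff1, Atf6b, Ikzf1, Ikzf3, Vopp1, Zbtb20 and Zbtb32, did not pass. Called regulators numbered 3 without stimulated control replicate 1, 1, 0 and 3 without knockout replicates 1, 2 and 3, 0 without control replicate 1 in both states, and 2 under quantile normalization.

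Surface and effector genes of plasma cells were lower too. Of 25 tested, 10 fell and 1 rose, with a median of -1.04. Bhlha15, a gene of neither list that encodes the secretory cell factor MIST1, had levels of 5.32, 4.47 and 5.09 in control and 2.64, 2.52 and 3.17 in knockout cells, a 4.54-fold decrease (adjusted p = 0.00736). Tnfrsf17, the survival receptor BCMA, read 1.75, 1.20 and 2.95 in control and -2.19, -2.81 and 0.06 in knockout cells, where 2 of 3 arrays detected it. Replicate 3 was the highest array of both groups, and the groups did not overlap. Jchain, which joins IgM and IgA into polymers, went from 6.49, 6.22 and 7.46 to 4.09, 3.51 and 5.23, or 5.45-fold lower (adjusted p = 0.0179). Mzb1, an ER protein that helps immunoglobulin assemble, read 8.45, 7.79 and 8.37 against 6.81, 6.64 and 6.78 (change -1.46, SE 0.21, adjusted p = 0.0082). Hid1, involved in secretory granules, was 7.30-fold lower, the lipid phosphatase gene Plpp5 3.57-fold and Txndc11, an ER thioredoxin-like protein, 3.29-fold (adjusted p = 0.00635, 0.0057 and 0.0168). Sdc1, the plasma cell surface marker CD138, had a change of -1.58 that did not pass (SE 0.47, adjusted p = 0.0954), with overlapping groups. The 1 member that rose was Tmem176b (change 1.26). Called members numbered 3 and 18 without stimulated control replicates 1 and 2, 3, 0 and 7 without knockout replicates 1, 2 and 3, and 0 without control replicate 1 in both states.

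**Figure D1:**
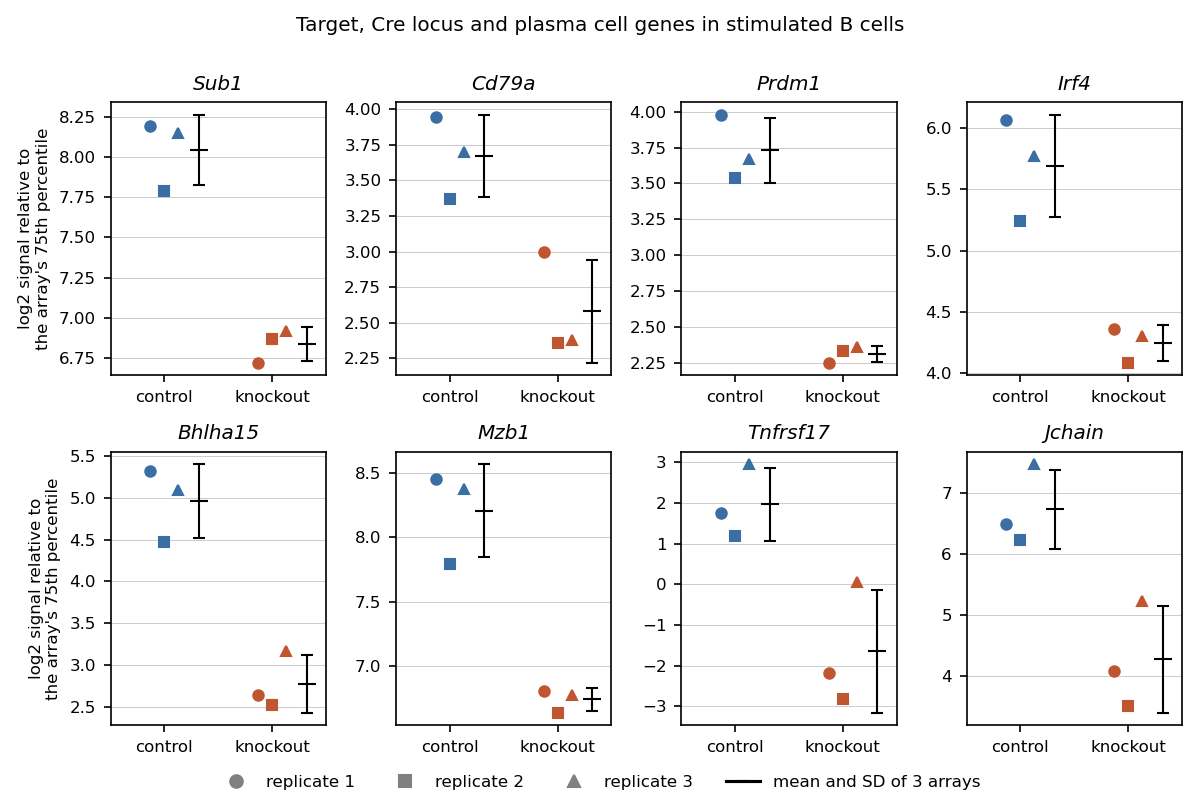
Levels of Sub1, Cd79a and 6 plasma cell genes on the 6 stimulated arrays. The y axis is log2 signal relative to the array's 75th percentile, symbols are replicates, and the bars show the mean and SD of 3 arrays. In each panel the 3 knockout arrays lie below the 3 control arrays, by 1.10 or more on average; the Sub1 panel runs from 8.19 to 6.72.

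ER genes were lower as a group. All 49 tested genes of ER translocation, glycosylation and vesicle transport had a negative change, and 31 of them (63.3%) fell, with none higher and a median of -1.05. The members that did not pass had changes between -1.80 and -0.10. Rpn1, a subunit of the oligosaccharyl transferase, had levels of 8.11, 7.56 and 8.09 in control and 6.48, 6.47 and 6.49 in knockout cells, a 2.72-fold decrease (adjusted p = 0.00635). Ssr2, part of the translocon-associated complex, read 6.25, 5.31 and 6.12 against 4.18, 3.98 and 4.40 (change -1.71, SE 0.25, adjusted p = 0.0103). Spcs2, a signal peptidase subunit, and Kdelr2, a retrieval receptor for ER proteins, were 3.04-fold and 3.15-fold lower (both adjusted p = 0.0106). Sec24d, a coat protein of vesicles leaving the ER, had a larger change of -1.96 (adjusted p = 0.0325). In resting cells the median of this list was -0.21, and 0 members were called. Only 3 of all tested features were called in resting cells, so this count does not separate the list from others. In the test of whether a change differed from that in resting cells, 0 members of the list were called.

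Chaperones and degradation genes of the ER were lower as well, with 18 of 34 tested members lower, none higher and a median of -1.11. Manf, a chaperone-associated protein secreted under ER load, had levels of 6.63, 6.05 and 6.10 in control and 4.51, 4.68 and 4.70 in the knockout (change -1.63, SE 0.21, adjusted p = 0.0057). Sdf2l1, a cofactor of BiP, was 2.74-fold lower, Derl1, of the retrotranslocation channel, 2.67-fold, and Selenok, a selenoprotein of the ER membrane, 2.52-fold (adjusted p = 0.00985, 0.0103 and 0.0106). Hspa5, which encodes the chaperone BiP, read 8.23, 7.77 and 8.01 against 6.67, 6.93 and 6.70, and Hsp90b1, the chaperone GRP94, 8.83, 8.24 and 8.62 against 7.09, 7.21 and 7.20 (adjusted p = 0.0129 for both). The groups were apart by more than the spread within either for these 2 genes. Herpud1, of the degradation machinery, read 5.93, 5.21 and 5.40 against 4.27, 4.13 and 3.85 (change -1.43, SE 0.24, adjusted p = 0.0140). Called members of the chaperone list numbered 5 without stimulated control replicate 1, 3, 0 and 7 without knockout replicates 1, 2 and 3, 0 without control replicate 1 in both states, and 7 under quantile normalization. For the translocation list these counts were 4, then 4, 0 and 11, then 0, and 21.

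Promoters of the chaperone genes are shown because 2 related sequence elements were found among them and in no gene of the translocation list. Windows ran from 250 bases before to 50 bases after the transcript start (RefSeq, GRCm38.p6), and both strands were searched. The ER stress response element (ERSE), which is CCAAT and CCACG with 9 bases of any kind between them, was in 10 of 29 chaperone genes with a window (34.5%), against 0.137% of all 27025 genes. It was in 0 of 38 genes of the translocation list. Among the chaperone genes with a window, 6 of 15 called ones and 4 of 13 not called ones held it. The related element ERSE-II was in 2 of the 29 chaperone genes (6.90%) and 0.0444% of all genes. Such a match is a description of the letters and not of a bound site. Capitals mark the ERSE in the Hspa5 and Hsp90b1 windows and ERSE-II in the Herpud1 window, on either strand. They lie at chr2:34771840-34772139 (plus strand), chr10:86705395-86705694 (minus strand) and chr8:94386179-94386478 (plus strand).
Hspa5: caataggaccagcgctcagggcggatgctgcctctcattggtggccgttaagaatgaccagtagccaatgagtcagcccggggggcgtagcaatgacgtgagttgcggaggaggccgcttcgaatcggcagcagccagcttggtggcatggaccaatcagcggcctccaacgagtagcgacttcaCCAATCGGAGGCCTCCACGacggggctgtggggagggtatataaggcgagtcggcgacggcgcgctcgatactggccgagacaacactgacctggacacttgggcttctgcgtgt
Hsp90b1: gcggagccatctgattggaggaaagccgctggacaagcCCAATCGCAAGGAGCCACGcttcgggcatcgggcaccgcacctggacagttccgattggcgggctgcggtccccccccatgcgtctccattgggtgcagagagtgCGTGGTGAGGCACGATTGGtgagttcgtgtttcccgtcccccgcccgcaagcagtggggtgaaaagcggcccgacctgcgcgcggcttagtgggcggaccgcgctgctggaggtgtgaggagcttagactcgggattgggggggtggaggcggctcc
Herpud1: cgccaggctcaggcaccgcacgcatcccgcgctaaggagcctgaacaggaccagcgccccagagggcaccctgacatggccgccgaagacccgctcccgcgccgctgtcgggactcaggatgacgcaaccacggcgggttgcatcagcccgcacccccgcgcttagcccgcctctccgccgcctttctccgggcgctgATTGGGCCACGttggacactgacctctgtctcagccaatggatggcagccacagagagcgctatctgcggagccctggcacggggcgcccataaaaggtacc

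Genes of amino acid supply that ATF4 controls fell as a group. ATF4 is a transcription factor made when amino acids run short or the ER is loaded. Of 33 tested members 19 fell (57.6%), none rose and the median was -1.13. Slc7a3, a transporter of arginine and lysine, had levels of 1.70, 1.39 and 1.26 in control and -2.72, -1.27 and -1.80 in knockout cells, where 2 of 3 arrays detected it (adjusted p = 0.00206). Chac1, an enzyme that degrades glutathione, read 2.92, 1.98 and 2.87 against -0.33, -0.19 and 0.00, a 6.79-fold decrease (adjusted p = 0.00243). Asns, asparagine synthetase, read 4.80, 4.15 and 4.83 against 1.80, 2.36 and 2.33, a 5.39-fold decrease (adjusted p = 0.0154). The lowest control array was above the highest knockout array by more than 1 log2 unit in each of these 3 genes. Slc6a9, a glycine transporter, was 3.99-fold lower, the translation inhibitor gene Eif4ebp1 2.78-fold and Psph, the last enzyme of serine synthesis, 2.45-fold (adjusted p = 0.0244, 0.00528 and 0.0129). Atf4 itself had a smaller change of -0.96 (SE 0.18, adjusted p = 0.0209), from 7.93, 7.40 and 7.67 to 6.67, 6.69 and 6.75. Ddit3, which encodes the stress factor CHOP, had a change of -0.18 with overlapping groups (adjusted p = 0.611). Called members numbered 6 without stimulated control replicate 1, 3, 2 and 8 without knockout replicates 1, 2 and 3, and again 2 without control replicate 1 in both states.

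The cytosolic aminoacyl tRNA synthetases, which charge tRNAs and include further ATF4 targets, had a median of -0.72, with 5 of 20 lower and none higher. Gars, the glycine enzyme, had levels of 7.20, 6.78 and 6.86 in control and 5.98, 6.10 and 5.93 in the knockout (change -0.95, SE 0.19, adjusted p = 0.0258). Iars, Cars and Tars, the isoleucine, cysteine and threonine enzymes, had changes of -1.03, -0.96 and -0.96. The fifth called enzyme was the asparagine enzyme, Nars. With the replicate block 8 enzymes passed. None passed under quantile normalization, without stimulated control replicate 1, without any 1 knockout array or without control replicate 1 in both states. The C/EBP-ATF response element (CARE), TGATGNAAN, which ATF4 binds together with C/EBP factors, was present in 10 of 32 ATF4 list genes with a window (31.2%) and in 5 of 13 tRNA synthetase genes with one (38.5%), against 4.50% of all genes. In the ATF4 list it was in 4 of 15 called genes and in 2 of 12 that were not called. The windows of 3 genes with the element are shown, with the match in capitals. They are at chr2:119350992-119351291 (plus strand), chr6:7693160-7693459 (minus strand) and chr6:55037751-55038050 (plus strand), and the match starts at -194, -23 and -31 from the transcript start.
Chac1: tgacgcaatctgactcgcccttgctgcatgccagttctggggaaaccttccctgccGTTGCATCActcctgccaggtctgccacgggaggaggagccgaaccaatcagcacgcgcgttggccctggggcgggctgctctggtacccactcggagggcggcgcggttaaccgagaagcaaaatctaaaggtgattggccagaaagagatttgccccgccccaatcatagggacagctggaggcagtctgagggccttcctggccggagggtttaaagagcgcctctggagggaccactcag
Asns: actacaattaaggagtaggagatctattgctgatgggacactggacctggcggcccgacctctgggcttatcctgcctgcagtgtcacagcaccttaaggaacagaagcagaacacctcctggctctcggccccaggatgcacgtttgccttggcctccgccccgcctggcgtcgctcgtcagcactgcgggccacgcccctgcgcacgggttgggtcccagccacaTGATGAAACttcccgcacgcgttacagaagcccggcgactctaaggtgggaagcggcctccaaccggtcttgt
Gars: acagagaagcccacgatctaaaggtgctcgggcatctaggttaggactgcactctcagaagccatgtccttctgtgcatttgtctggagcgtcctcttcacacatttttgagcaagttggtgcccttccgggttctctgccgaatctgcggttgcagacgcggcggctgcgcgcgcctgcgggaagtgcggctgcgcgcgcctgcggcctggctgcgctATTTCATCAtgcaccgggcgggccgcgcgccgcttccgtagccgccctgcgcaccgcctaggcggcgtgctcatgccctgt

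Lipid synthesis genes were lower. Of 30 tested genes of cholesterol synthesis and uptake 14 fell (46.7%), none rose and the median was -0.98. Fdps, farnesyl diphosphate synthase, had levels of 6.41, 5.85 and 6.44 in control and 4.39, 4.11 and 4.90 in knockout cells, a 3.40-fold decrease (adjusted p = 0.0114). Hmgcs1, HMG-CoA synthase, read 5.52, 5.07 and 5.40 against 4.23, 4.08 and 4.15 (change -1.18, SE 0.18, adjusted p = 0.0113). Neither gene had overlapping groups. Msmo1 and Mvd, of the later and the earlier steps of the pathway, were 2.36-fold and 2.28-fold lower (adjusted p = 0.0140 and 0.0156). The sterol regulatory element TCACNCCAC was in 1 of 22 of these genes with a window, Hmgcs1, or 4.55%, against 1.44% of all genes. Fatty acid and phospholipid genes had a median of -0.60, with 4 of 23 lower: Scd2, a desaturase, read 6.63, 6.12 and 6.49 in control and 4.57, 4.31 and 4.93 in knockout cells and was 3.50-fold lower (adjusted p = 0.00477). The acyl-CoA synthetase gene Acsl3, the acyltransferase gene Agpat5 and the elongase gene Elovl6 were 2.53-fold, 2.25-fold and 3.12-fold lower. With the replicate block 8 fatty acid genes passed, and without control replicate 1 in both states none did. Called cholesterol genes numbered 1 and 7 without stimulated control replicates 1 and 3, 0, 0 and 6 without knockout replicates 1, 2 and 3, 0 without control replicate 1 in both states, and 5 under quantile normalization.

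Glycolytic genes were lower, with different medians on the 2 slides. Of 22 tested members 10 fell and none rose (median -0.91), with a median of -1.15 on slide 1 and -0.54 on slide 2. Aldoc, an aldolase, had levels of 3.93, 4.30 and 3.88 in control and 1.60, 1.22 and 2.25 in knockout cells, 5.08-fold lower (adjusted p = 0.00554). Slc16a3, the lactate exporter MCT4, read 4.02, 4.42 and 1.42 against 0.43, 0.13 and 0.86. Control replicate 3 was close to the knockout arrays for this gene, and the change was -3.95 on slide 1 and -0.56 on slide 2. Pgk1, phosphoglycerate kinase, was 2.87-fold lower, Hk2, hexokinase 2, 2.98-fold and Pkm, pyruvate kinase, 2.28-fold (adjusted p = 0.0129, 0.0193 and 0.0197). Among 18 tested hypoxia targets 3 were lower, with a median of -0.29 that turned to 0.11 when arrays were scaled on spots detected on all 12. Vegfa, the endothelial growth factor, read 2.37, 1.76 and 1.97 in control and -0.13, -0.22 and 0.17 in the knockout (change -2.09, SE 0.33, adjusted p = 0.0121). Mgarp, a mitochondrial protein gene induced by hypoxia, had the largest decrease of all named genes, from 0.78, 1.30 and 0.49 to -3.70, -3.53 and -1.58, with 1 of 3 knockout arrays above background. Higd1a was 2.08-fold lower (adjusted p = 0.0288). The core hypoxia motif, searched as ACGTG, was in 15 of 21 hypoxia targets with a window (71.4%) and 15 of 24 glycolytic genes with one (62.5%), against 21.8% of all genes. Searched as GCGTG it was in 66.7% of either list, against 35.2% of all genes. Among glycolytic genes ACGTG was in 7 of 10 called and 7 of 11 not called ones, and GCGTG in 5 of 10 and 9 of 11. Among hypoxia targets these counts were 3 of 3 and 7 of 12, and 2 of 3 and 9 of 12. With the replicate block 6 hypoxia targets passed. Called glycolytic genes numbered 1 and 6 without stimulated control replicates 1 and 2, 2, 0 and 1 without knockout replicates 1, 2 and 3, 0 without control replicate 1 in both states, and 1 under quantile normalization.

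Growth and division genes changed less. Of 33 MYC, polyamine and ribosome biogenesis genes 3 fell (median -0.43): Srm and Odc1, enzymes of polyamine synthesis, by 1.32 and 1.08 (adjusted p = 0.0322 and 0.0420), and the ribosome biogenesis gene Wdr43 by 0.92 (adjusted p = 0.0361). Replication genes had a median of -0.45, with Fen1, the flap endonuclease, as the 1 called member of 33. Mitosis genes had a median of -0.41, and of 33 only Cdc25b, a phosphatase that activates mitotic kinases, was called (change -1.02, adjusted p = 0.0383). All 30 respiratory chain and ATP synthase genes had negative changes between -0.84 and -0.18 (median -0.44), and none was called. All 30 were detected on all 6 arrays, and the features so detected had a median of -0.31. The medians of the MYC, replication, mitosis and respiratory chain lists were near that value, so their shared negative sign does not set them apart. The smallest p belonged to Atp5g1 (change -0.84, adjusted p = 0.0773). The medians of the mitosis and respiratory chain lists came to -0.04 and 0.01 under quantile normalization, so the respiratory chain list turned its direction there. With the replicate block Atp5g1 and 5 MYC list genes passed. Ccnd2, the cyclin of B cell G1 phase, was 2.30-fold lower, with levels of 6.62, 5.75 and 6.51 against 5.12, 4.87 and 5.28 (adjusted p = 0.0273), the 1 call among 17 G1 genes. Of 18 p53 targets and 22 quiescence factors none was called. Their leading members were Aen and Cdkn1a (changes -0.57 and 0.68) and Tob1 and Btg1 (changes -0.74 and 0.49), with adjusted p from 0.156 to 0.172, and the change of Btg1 turned negative under median scaling.

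**Figure D2:**
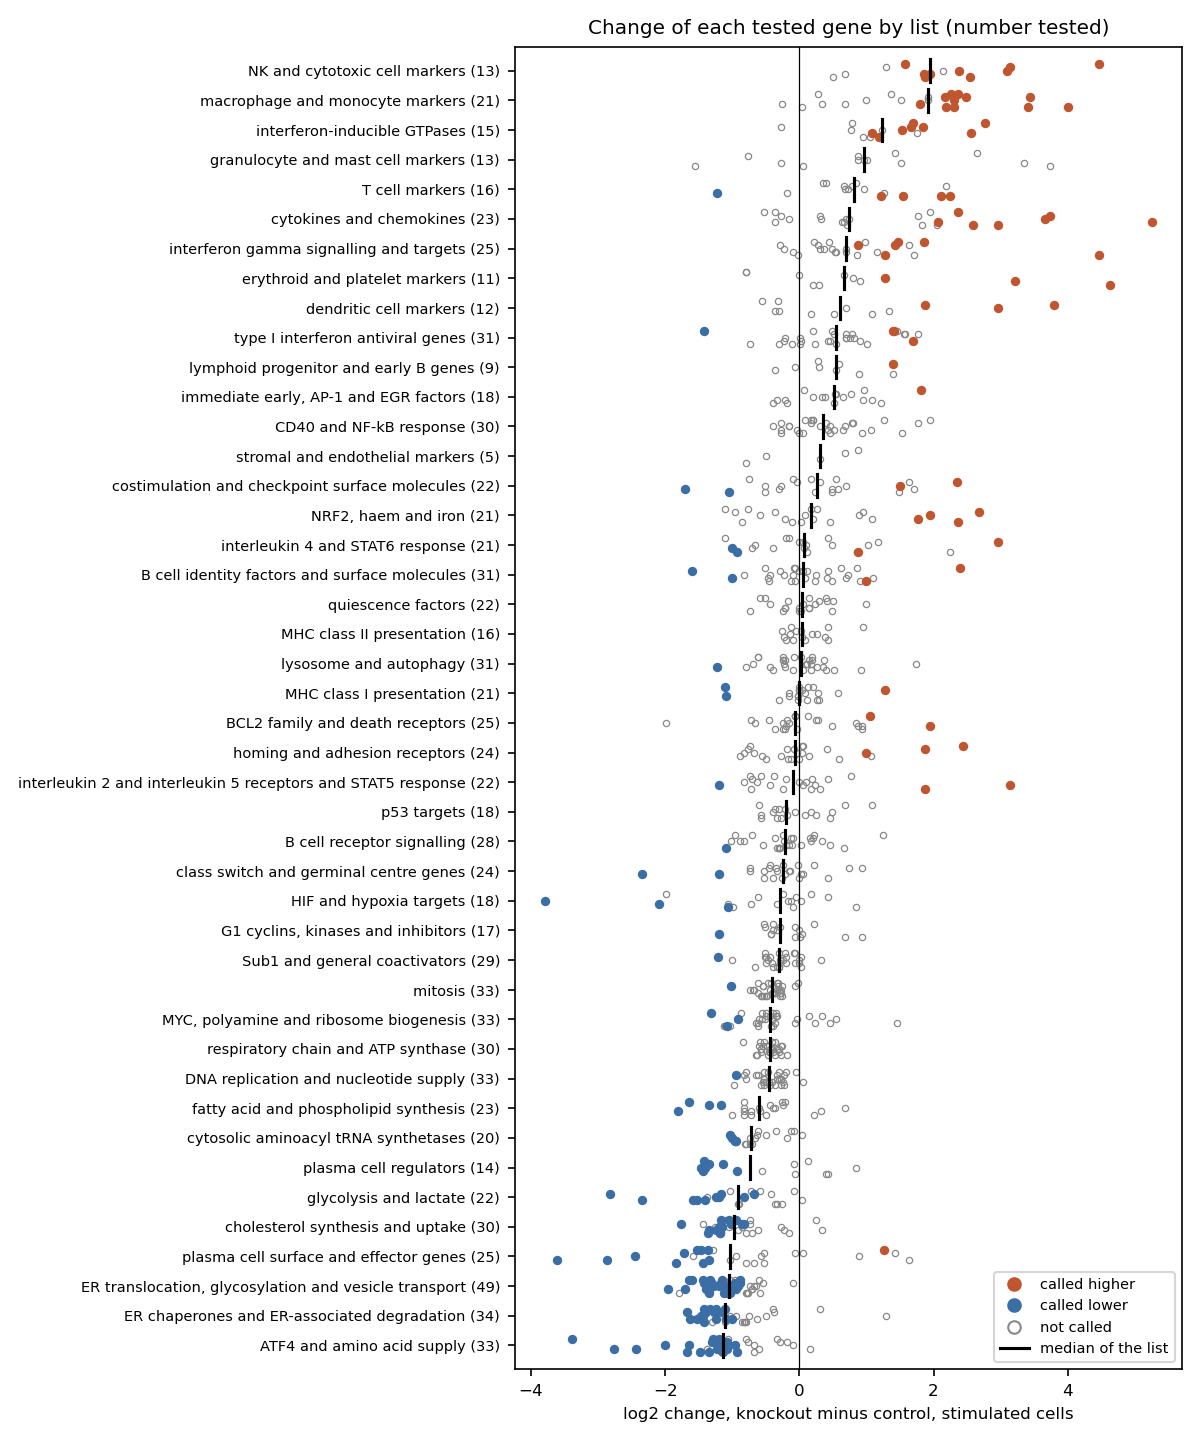
Log2 change, knockout minus control in stimulated cells, for every tested member of 44 gene lists, ordered by list median (black bar). Filled points were called, higher in orange and lower in blue, and open points were not; numbers in brackets are members tested. ATF4 and ER lists lie at the bottom with medians of -1.13 to -1.05 and no member called higher, and NK and macrophage markers at the top with medians of 1.95 and 1.92.

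B cell identity genes showed no common direction. Of 31 tested 2 rose and 2 fell (7 passed with the replicate block), with a median of 0.05 that was -0.51 under median scaling. Id2, an inhibitor of E proteins that is also expressed in NK cells and other lymphoid cells, had levels of 0.53, 0.57 and 0.59 in control and 2.77, 2.96 and 3.11 in knockout cells, a 5.23-fold increase (adjusted p = 0.00206). The 3 control arrays were nearly equal and all lay below the knockout arrays. Ccr7, the homing receptor for T cell zones, rose by 1.00 (adjusted p = 0.0315). Cd24a, a surface glycoprotein, read 6.25, 5.69 and 5.76 against 4.39, 4.16 and 4.35, and Fcer2a, the IgE receptor CD23 that IL-4 induces, was 2.01-fold lower (adjusted p = 0.00497 and 0.0421). Bach2 and Bcl6, which oppose plasma cell differentiation, had changes of 0.91 and 0.73 that did not pass (adjusted p = 0.0750 and 0.182). Among 28 genes of receptor signalling Cd79a was the 1 called, and 6 passed with the replicate block. Of 24 class switch and germinal centre genes Aldoc and the DNA ligase gene Lig4 were called, both lower.

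Responses to the stimuli were mixed. CD40 and NF-kB targets had no call by limma among 30 members (3 with the replicate block, 14 with the scaling on spots detected on all 12 arrays), and their median of 0.36 was -0.20 under median scaling. The changes nearest the threshold were 0.94 in the survival gene Bcl2a1d (adjusted p = 0.0729) and 0.79 in the inhibitor gene Nfkbie (adjusted p = 0.0760), which passed with the replicate block. In the IL-4 and STAT6 list 2 rose and 2 fell of 21: Ccl17, a chemokine, and Fam43a rose, and Fcer2a and Xbp1 fell (7 passed with the replicate block). Of the 21, 2 had been tested only through stimulated knockout cells, and Ccl17 was well above background on 1 of 3 control arrays. In the list of IL-2 and IL-5 receptors and STAT5 targets 2 rose and 1 fell of 22. Il2rb, the beta chain of the IL-2 receptor, had levels of 1.77, 1.26 and 1.08 in control and 2.95, 3.03 and 3.73 in the knockout (change 1.87, SE 0.30, adjusted p = 0.0129). Gzmb, granzyme B, read 2.76, 2.65 and 2.94 against 5.92, 5.65 and 6.19, 8.81-fold higher (adjusted p = 0.00554). Both genes are also NK and T cell genes, whose markers are given below. Egr1, of the immediate early factors, was 3.52-fold higher (adjusted p = 0.00985), with 1 of 3 control arrays above background and it was the only call among 18.

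Interferon genes were higher in the knockout. Ifng encodes interferon gamma, a cytokine of NK and T cells that B cells can also make. It had levels of -0.30, -2.12 and -1.40 in control and 3.09, 3.21 and 3.29 in knockout cells, 22.1-fold higher (change 4.47, SE 0.39, adjusted p = 0.00152). The 3 knockout arrays lay close together, and 2 of 3 control arrays detected the gene. Of 25 interferon gamma signalling genes and targets 6 rose and none fell (median 0.70), 2 of the 25 having been tested only through stimulated knockout cells. The 17 genes detected on all 6 arrays had a median of 0.49. Called members numbered 1 under median scaling and without control replicate 1 in both states, and 2 without knockout replicate 1 or 2. Irf1, the transcription factor of the primary response, read 4.59, 4.19 and 4.56 against 6.03, 5.66 and 6.06 (change 1.47, SE 0.19, adjusted p = 0.00528). Nlrc5, the activator of MHC class I genes, was 2.43-fold higher and Il12rb1, a chain of the IL-12 receptor, 2.67-fold (adjusted p = 0.0118 and 0.0154).

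The interferon-inducible GTPases, which attack vacuoles of intracellular microbes, had 8 of 15 members higher (53.3%), none lower and a median of 1.23. Tgtp2 had levels of 3.21, 2.90 and 2.90 in control and 5.70, 5.22 and 6.36 in knockout cells, 6.77-fold higher (adjusted p = 0.00243). Gbp2 read 2.84, 2.18 and 3.0 against 5.51, 4.62 and 5.60, 5.92-fold higher (adjusted p = 0.00260). Gbp4 and Irgm2 were 3.60-fold and 3.16-fold higher (adjusted p = 0.00674 and 0.00701), and for all 4 genes every knockout array lay above every control array. None of the 15 had been tested through stimulated knockout cells alone, and the 12 detected on all 6 arrays had a median of 1.36. Called members numbered 13 with the replicate block, 4, 3 and 5 without knockout replicates 1, 2 and 3, 3 without control replicate 1 in both states, and 2 under median scaling. The type I interferon genes had 3 of 31 higher and 1 lower, with a median of 0.55. The 14 detected on all 6 arrays had a median of 0.01, and median scaling gave 0.00 over the list. With the replicate block 9 passed. Ifit2, which binds viral RNA, was at least 1.64-fold higher, since no control array was above background for it, Ifih1, the RNA sensor MDA5, 2.66-fold higher (1 of 3 control arrays detected) and the apoptosis factor gene Xaf1 2.62-fold (adjusted p = 0.0127, 0.0132 and 0.0488). Isg20, an exonuclease that is also abundant in plasma cells, was 2.67-fold lower (adjusted p = 0.0197).

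Promoter windows of the GTPase genes carry the elements of this response in most cases and are shown for that reason. The interferon-stimulated response element (ISRE), searched as GAAA and GAAA with 2 bases of any kind between them, was in 9 of 10 GTPase genes with a window (90.0%), in 13 of 24 type I interferon genes (54.2%) and in 3.99% of all genes. The gamma-activated site (GAS) TTCNNNGAA, an element of the interferon gamma response, was in 6 of the same 10 GTPase genes, in 6 of 21 interferon gamma genes (28.6%) and in 9.55% of all genes. The ISRE was in all 7 called GTPase genes with a window and in 1 of 2 that were not called. In the type I interferon list it went the other way, with 1 of 4 called genes and 10 of 17 not called ones. The interferon gamma list held it in 4 of 21 genes with a window (19.0%), namely 0 of 4 called and 4 of 15 not called ones. Capitals mark the ISRE in the windows of Gbp2 and Tgtp2 and the GAS in that of Irf1. They lie at chr3:142620413-142620712 (plus strand), chr11:49064163-49064462 (minus strand) and chr11:53769764-53770063 (plus strand), with the match at -59, -70 and -90 from the transcript start.
Gbp2: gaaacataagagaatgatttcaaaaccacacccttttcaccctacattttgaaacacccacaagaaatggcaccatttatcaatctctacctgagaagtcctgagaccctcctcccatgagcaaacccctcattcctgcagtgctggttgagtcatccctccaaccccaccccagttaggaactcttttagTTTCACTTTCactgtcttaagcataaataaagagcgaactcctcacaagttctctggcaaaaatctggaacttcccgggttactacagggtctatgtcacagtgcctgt
Tgtp2: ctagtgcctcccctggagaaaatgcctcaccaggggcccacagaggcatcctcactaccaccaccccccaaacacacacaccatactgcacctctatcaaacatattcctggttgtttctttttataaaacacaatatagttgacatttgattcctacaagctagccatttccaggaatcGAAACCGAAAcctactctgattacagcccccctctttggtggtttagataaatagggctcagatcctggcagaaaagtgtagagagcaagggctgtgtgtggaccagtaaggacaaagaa
Irf1: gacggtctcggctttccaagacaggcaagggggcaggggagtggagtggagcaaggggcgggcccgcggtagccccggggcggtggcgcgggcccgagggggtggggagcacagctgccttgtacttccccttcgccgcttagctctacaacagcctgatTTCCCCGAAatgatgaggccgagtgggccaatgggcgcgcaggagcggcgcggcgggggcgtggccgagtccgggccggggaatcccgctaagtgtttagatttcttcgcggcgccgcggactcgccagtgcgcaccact

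**Figure D3:**
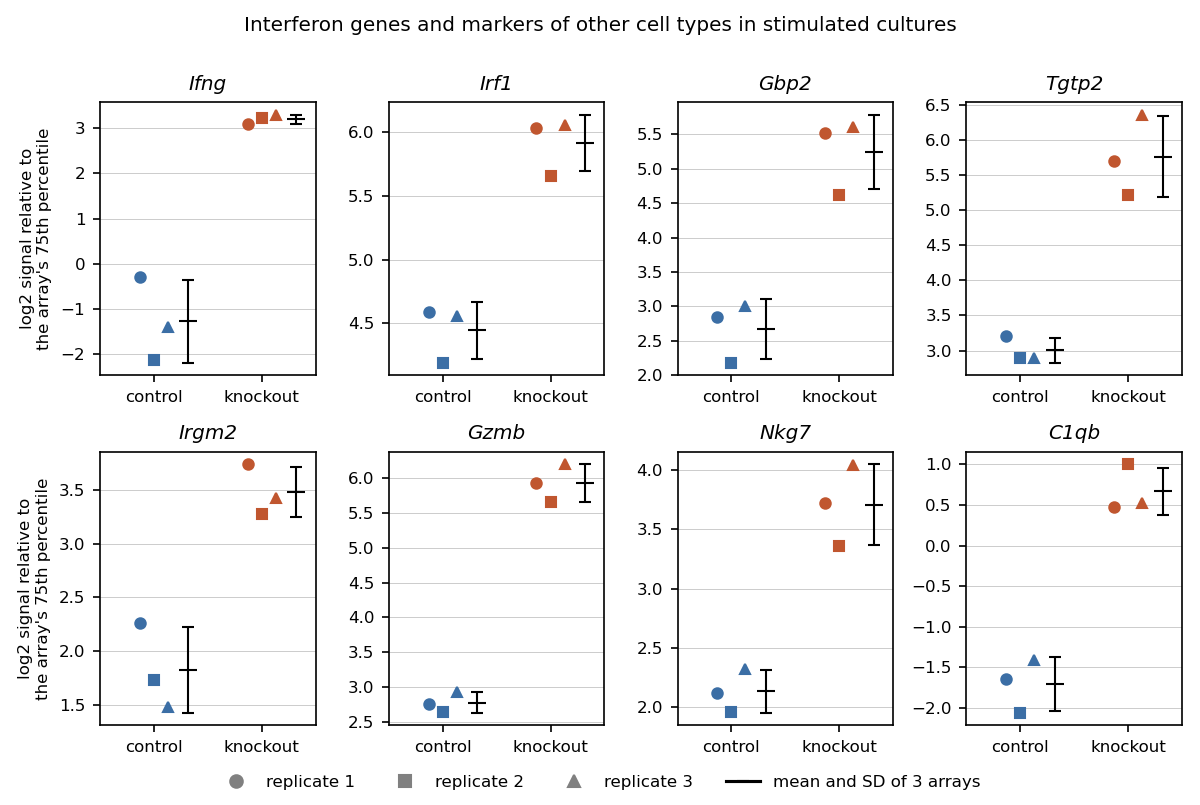
Levels of 5 interferon genes and of 3 markers of other cell types (Gzmb, Nkg7, C1qb) on the 6 stimulated arrays. The y axis is log2 signal relative to the array's 75th percentile, symbols are replicates, and the bars show the mean and SD of 3 arrays. In all 8 panels the 3 knockout arrays lie above the 3 control arrays; Ifng runs from -2.12 to 3.29.

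Few antigen presentation genes were called. None of 16 MHC class II genes was called (median 0.04), and the leading changes were 0.38 in H2-Ob and 0.42 in H2-Eb2, which encode class II chains (adjusted p = 0.251 and 0.279) and turned negative under median scaling. In MHC class I presentation Nlrc5 rose, and the chaperones Calr and Pdia3, which belong to the ER list as well, fell by 1.09 and 1.11 (adjusted p = 0.0197 and 0.0361). The median of the 21 members was 0.00. When arrays were scaled on spots detected on all 12, 6 class II and 6 class I genes were called.

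Chemokines and cytokines were among the larger increases. Of 23 tested 7 were higher and none lower, but 6 of the 23 had been tested only through stimulated knockout cells. The 6 genes detected on all 6 arrays had a median of -0.32, against 0.74 over the list. Called members numbered 3 without stimulated control replicate 1, 3, 3 and 6 without knockout replicates 1, 2 and 3, and 2 without control replicate 1 in both states. Ccl6, a myeloid chemokine, had levels of -1.35, -1.70 and 0.05 in control and 4.20, 5.20 and 3.34 in knockout cells, 38.0-fold higher (adjusted p = 0.00194). Ccl5, a chemokine of T and NK cells, read -0.80, 0.28 and 0.32 against 2.21, 2.08 and 3.27, 6.02-fold higher (adjusted p = 0.00871). Csf1, the macrophage growth factor, was 5.13-fold higher, and Ccl9 at least 5.89-fold higher (adjusted p = 0.00477 and 0.0139). Surface molecules followed no single pattern. Icosl, the ligand of ICOS, rose by 1.50 and Lag3, an inhibitory receptor, by 2.35, while Cd48 fell by 1.05 and Slamf1 by at least 1.28-fold (adjusted p = 0.0209, 0.0319, 0.0285 and 0.0246). The homing receptors Cxcr6 and Ccr9 were 5.42-fold and 3.66-fold higher, each with 1 of 3 control arrays above background. Casp1 and Fasl, of inflammatory and receptor-driven death, rose by 1.06 and 1.95 (adjusted p = 0.0305 and 0.0342). Fasl was well above background on 1 of 3 control arrays. Among iron and oxidative stress genes Srxn1, Spic, Slc40a1 and Slc11a1 rose, Slc11a1 by at least 2.46-fold and Slc40a1 by at least 1.75-fold. The last 3 are genes of iron-recycling macrophages. Tested only through stimulated knockout cells were 2 of 22 surface molecules, 2 of 24 homing receptors, 1 of 25 death genes and 1 of 21 iron and oxidative stress genes.

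Markers of other cell types were higher on the same knockout arrays, and their part in the increases and decreases above was not tested. NK and cytotoxic markers had 9 of 13 tested members higher and none lower (median 1.95), 5 of the 13 tested only through stimulated knockout cells. Their summed linear signal, with the 75th percentile of the array set to 1, was 40.5 to 42.7 in control and 242 to 458 in knockout cells. On the resting arrays it was 11.5 to 14.4 in control and 14.3 to 18.5 in knockout cells, and the median change of the list there was 0.66. Much of the sum was the signal of Gzma, granzyme A, with levels of 4.62, 4.45 and 4.43 in control and 7.17, 7.28 and 8.35 in knockout cells. The receptor genes Klrd1 and Klrk1 were below -0.7 on all 6 arrays. Each was detected on 0 of 3 control and 2 of 3 knockout arrays, as were Klre1 and Klra8. The receptor genes Ncr1, Klrb1c and Klra1 were detected on 1, 2 and 1 of 3 control arrays and on all 3 knockout arrays. Klrb1c read -3.72, 0.79 and -2.62 against -0.09, 0.13 and 0.83, with overlap. Eomes read -1.92, -2.19 and -0.53 against 0.62, 0.40 and 1.99, and Tbx21 -1.22, -0.56 and -0.01 against 1.49, 0.72 and 1.57, without overlap. All 13 tested NK markers had positive changes. Nkg7, a granule membrane protein, read 2.12, 1.96 and 2.32 against 3.72, 3.36 and 4.04, 2.98-fold higher (adjusted p = 0.0106). Of 18 NK markers on the array 4 were detected on all 3 control arrays and 13 on all 3 knockout arrays, and Klrc1 on none of the 6. This count was larger on the knockout arrays in all 8 marker lists, such as 4 and 14 of 18 T cell markers. The knockout arrays had more detected spots in general, as given above. Called NK markers numbered 4 without stimulated control replicate 1, 3, 2 and 4 without knockout replicates 1, 2 and 3, and 1 without control replicate 1 in both states. T cell markers had 4 higher and 1 lower of 16 (median 0.82), 2 of the 16 tested only through stimulated knockout cells, and their summed signal was 170 to 237 in control and 148 to 159 in knockout cells. On the control arrays most of the sum was the signal of Cd2, with levels of 7.37, 6.73 and 7.04, against 5.81, 5.91 and 5.73 in knockout cells. Of the 16 markers 14 had positive changes. The 4 detected on all 6 arrays had a median of 0.09. No T cell marker was called without control replicate 1 in both states or without knockout replicate 1 or 2. Zap70, Gata3, Bcl11b and Cd3g were higher and Cd2 lower by -1.23, while Cd3e, a defining chain of the T cell receptor complex, read 0.47, -0.42 and 1.73 against 1.02, 0.56 and 1.38, with overlap (adjusted p = 0.657). Cd3d, another chain of that complex, read -2.09, -0.80 and -2.54 against 0.88, -0.69 and 0.94, without overlap, and was not called. It was detected on 1 of 3 control arrays.

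Macrophage and monocyte markers had 11 of 21 higher and none lower (median 1.92; 2.22 on slide 1 and 1.33 on slide 2). Their summed signal was 38.7 to 81.5 in control and 111 to 121 in knockout cells. On the resting arrays it was higher, at 215 to 224 in control and 253 to 321 in knockout cells. The median change of the list in resting cells was 1.05, with 0 members called there, so these markers also tended to be higher in resting knockout cells. Mpeg1, a perforin-like protein of phagocytes, had levels of 1.23, 1.08 and 1.29 in control and 3.51, 3.14 and 3.53 in knockout cells, 4.57-fold higher (adjusted p = 0.00152). Fcer1g, an Fc receptor chain of myeloid and NK cells, was 5.58-fold higher, C1qb 5.16-fold and C1qa at least 4.21-fold, both of the complement subunits that macrophages make (all adjusted p = 0.00206). Csf1r, the receptor that defines macrophages, read 1.04, 0.31 and 2.57 against 1.94, 2.76 and 2.24, with overlap. Adgre1 read -0.43, -0.57 and -0.32 against 2.64, 1.88 and 1.06, without overlap. Of the 21 tested macrophage and monocyte markers 20 had positive changes and 1 a negative one. Between 5 and 12 of these markers were called with a single array left out, and 6 without control replicate 1 in both states. Dendritic cell markers had 3 of 12 higher, led by Itgax (CD11c) at at least 4.68-fold, and summed to 79.1 to 246 in control and 91.8 to 196 in knockout cells. Of the 12, 3 were tested only through stimulated knockout cells, and the 3 detected on all 6 arrays had a median of -0.31. Without control replicate 1 in both states 1 dendritic cell marker was called.

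Red cell and granulocyte genes were higher in part. Hba-a1 and Hba-a2 are alpha globin genes with near-identical sequence that probes may not tell apart. Hba-a1 was not well above background on any control array and was at least 10.8-fold higher, and Hba-a2 had a change of 4.64 with an SE of 1.08 (adjusted p = 0.0437 and 0.0438). Erythroid and platelet markers as a list, which holds Hba-a1 but not Hba-a2, had 3 of 11 higher and summed to 3.83 to 6.51 in control and 9.05 to 16.3 in knockout cells. None of them was called without control replicate 1 in both states. Ear2 and Ear1, eosinophil-associated ribonucleases also made by macrophages, had the levels -4.07, -2.39 and -2.67 against 3.14, 4.62 and 0.71 (Ear2, the largest increase of all named genes) and -3.09, -1.37 and -2.43 against 1.19, 2.39 and -0.39 (Ear1). In both, knockout replicate 2 was highest and replicate 3 lowest. The granulocyte and mast cell list had no call among 13 (2 under the scaling on spots detected on all 12 arrays), and its summed signals of 153 to 166 in control and 114 to 158 in knockout cells overlapped. Most of that sum was the signal of Csf3r, with levels of 7.33, 7.17 and 7.28 in control and 7.04, 7.23 and 6.67 in knockout cells, and the median change of the 13 was 0.97. S100a8 in that list read -3.96, -2.30 and -3.82 against 1.56, -0.40 and -0.03 (adjusted p = 0.0899), with no control array well above background. Of 9 tested lymphoid progenitor and early B genes Lef1 was higher (change 1.39, adjusted p = 0.0168; 3 passed with the replicate block), and the sums were 79.4 to 102 and 118 to 151. Most of these sums was the signal of Vpreb3, with levels of 6.28, 6.17 and 6.56 in control and 6.89, 6.77 and 7.11 in knockout cells. Stromal markers had no call among 5 tested, and 6 of the 16 on the array were detected on none of the 6 arrays.

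**Figure D4:**
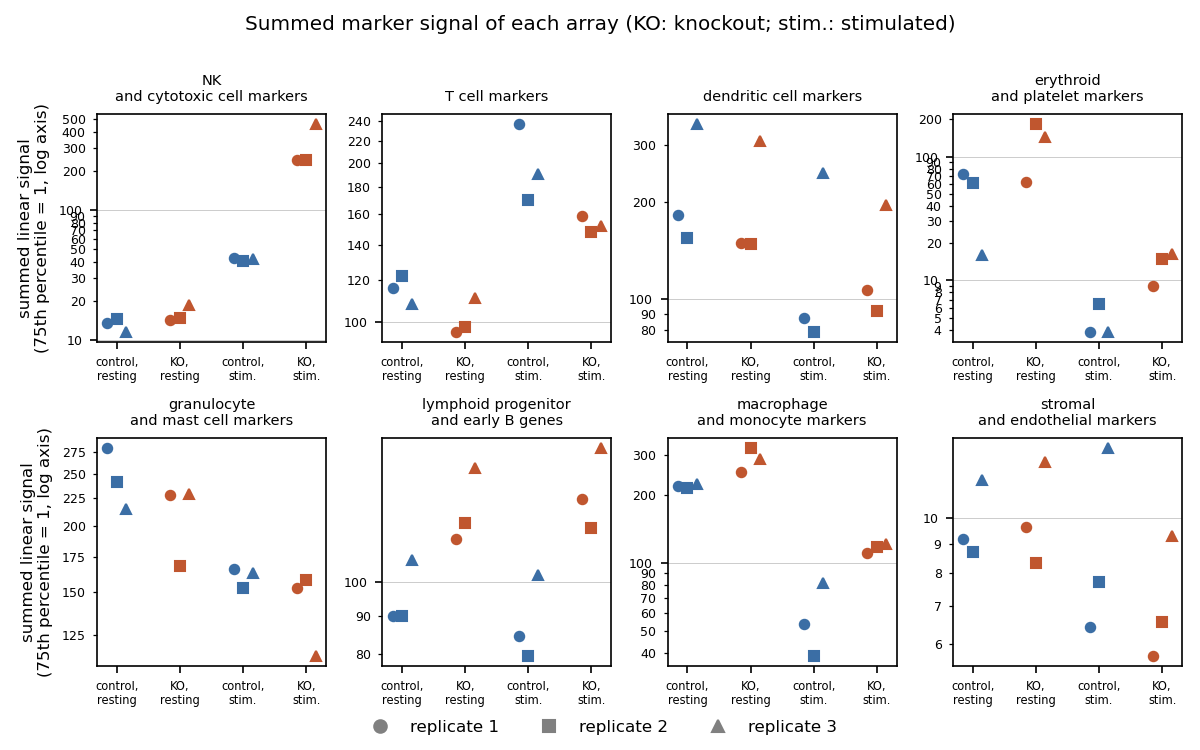
Summed linear signal of 8 lists of markers of other cell types on each of the 12 arrays, with the 75th percentile of an array set to 1, on a log axis; symbols are replicates. NK and cytotoxic markers sum to 242 to 458 on the stimulated knockout arrays and to 40.5 to 42.7 on the stimulated control arrays, and macrophage markers to 111 to 121 and 38.7 to 81.5.

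The comparison in resting cells was set beside these changes with the interaction of genotype and stimulation in the same limma fit. Of all features 33 (0.144%) differed between the states by the interaction test, and 24 of them were named genes. In the stimulated comparison 21 of these 24 were called. Resting knockout cells had higher levels of Jchain, at 6.87, 7.24 and 6.84 against 5.58, 5.20 and 5.85, and of Bhlha15, at 0.49, 1.21 and 0.48 against -0.51, -0.65 and -0.07, with no overlap. The changes of these genes in resting cells, 1.44 and 1.14, did not pass their own test (adjusted p = 0.206 and 0.183). Tnfrsf17 was alike, with 2.05 in resting and -3.61 in stimulated cells, but its difference did not pass (adjusted p = 0.0582). For Irf4, Prdm1 and Xbp1 the resting changes were -0.55, 0.36 and 0.08, and the differences between states were not called (adjusted p = 0.322, 0.102 and 0.255). The number of features called in the interaction ranged from 0, without any 1 of 5 resting or 2 knockout stimulated arrays, to 125, without stimulated control replicate 2.

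**Figure D5:**
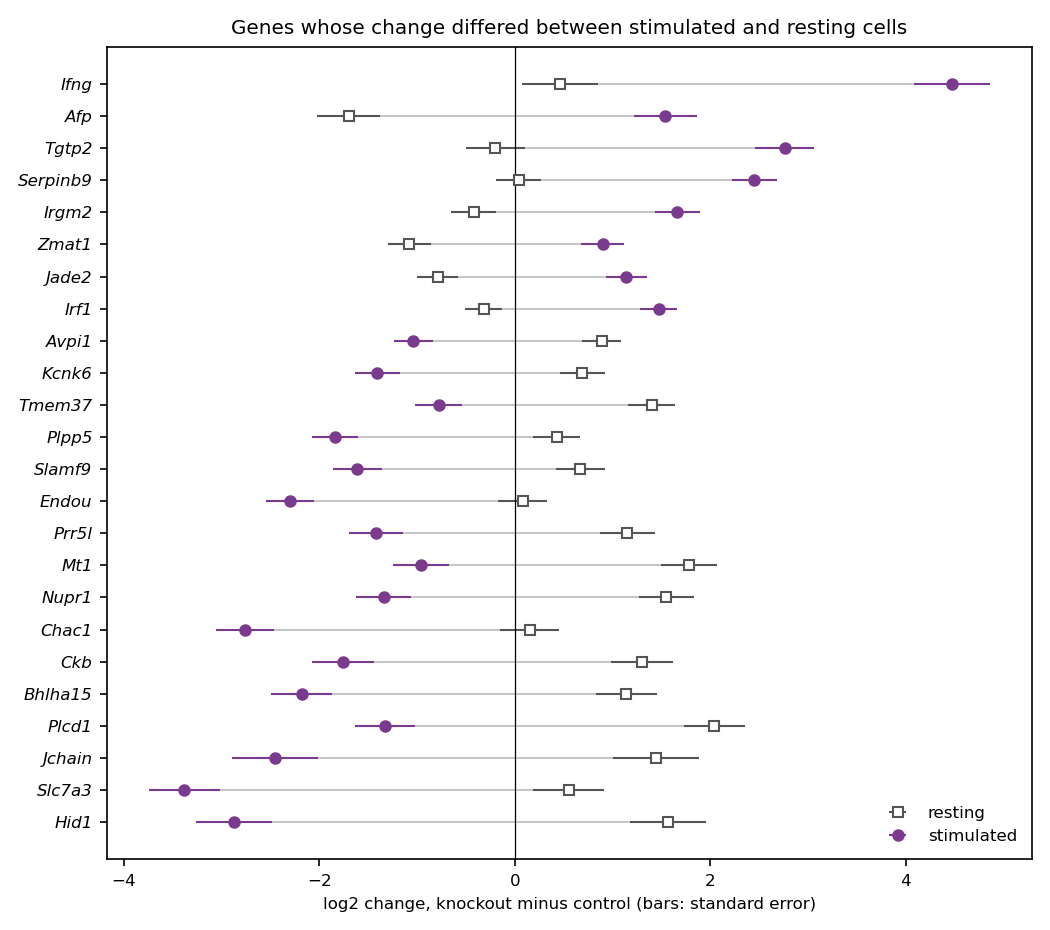
Log2 change, knockout minus control, of the 24 named genes called in the interaction, in resting cells (open squares) and stimulated cells (filled circles), with bars of 1 SE. Genes are ordered by the difference between the states, from Hid1 (-4.44) at the bottom to Ifng (4.01) at the top.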

How the data were processed

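Total RNA was amplified, labelled with Cy3 and hybridised to 1-colour Agilent arrays of 62976 spots, 1 per sample. Intensity values are the processed signals deposited by the authors, written by Feature Extraction 10.7.3.1 per the file headers (the submitters' processing notes name 9.1). The deposited intensity values of the series matrix differed from them by at most 0.497%. From these, log2 signal was computed relative to the 75th percentile of all non-control spots on the same array, leaving out outlier-flagged spots. Spots of a probe were averaged, 26413 of 55681 probes were named through their accession, and the brightest probe stood for a gene. A probe entered the test if some group had it well above background in each of its 3 samples, which left 12295 genes and 10686 unnamed probes.

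All 12 arrays were fitted with limma 3.58.1 in R 4.3.3 (group means, 8 residual degrees of freedom), with Benjamini-Hochberg adjustment over 22981 features and a threshold of 0.05. The fit was tested on simulated data. Where a gene was not well above background on any array of a group, the fold is a lower bound ("at least"), from the lowest detected signal per array. The number of arrays limits the precision. No set test was run. Motifs were searched in RefSeq promoters of GRCm38.p6, of which the table holds 32851 windows.

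Same-numbered control and knockout samples deviated together from their group means (correlations of 0.35, 0.33 and 0.48 for replicates 1 to 3, and 0.29 within slide 1), which is the source of the pairing in the replicate block.

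Members and lists were chosen with earlier results of these data known. Named genes are Sub1 and Cd79a, the 20 largest called increases and decreases without overlap, and up to 4 called members per list (up to 2 where none was called). The B cell genes, Hspa5, Hsp90b1, Herpud1, Atf4, Ddit3, Bach2, Bcl6, Ell2, Creb3l2, Nars, Sdc1, Tmem176b, Cd3e, Cd3g, Csf1r, Csf3r, Gzma, Klrd1 and Klrk1 were named outside that rule after their values were seen. So were Adgre1, Cd3d, Eomes, Tbx21, Vpreb3, Ncr1, Klrb1c, Klra1, Klre1 and Klra8. Sequences were printed for called members with a motif. Results for some genes are not reported here.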

Additional observations from a re-analysis of the deposited data

Results flagged for a closer look

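In 24 named genes the change in stimulated cells differed from that in resting cells by the interaction test of limma (adjusted p under 0.05). The differences below are log2 values, stimulated change minus resting change, and are not changes in stimulated cells. In 22 of the 24 genes the changes in the 2 states had opposite signs. Mt1, Tmem37 and Zmat1 were not called in stimulated cells, with changes of -0.96, -0.78 and 0.90 there and 1.78, 1.40 and -1.08 in resting cells.

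The difference was negative in 16 genes, and in 13 of them every resting knockout array lay above every resting control array. Secretory and plasma cell genes were Hid1 (-4.44), Jchain (-3.89), Bhlha15 (-3.32) and Plpp5 (-2.27). Amino acid and stress genes were Slc7a3 (-3.93), Chac1 (-2.91) and Nupr1 (-2.89). The metallothionein gene Mt1 had -2.74 and the creatine kinase gene Ckb -3.06. The others were Plcd1 (-3.37), Prr5l (-2.56), Endou (-2.38), Slamf9 (-2.28), Tmem37 (-2.18), Kcnk6 (-2.10) and Avpi1 (-1.93).

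The difference was positive in 8 genes. Those of the interferon response were Ifng (4.01), Tgtp2 (2.95), Irgm2 (2.08) and Irf1 (1.79). Serpinb9, an inhibitor of granzyme B, had 2.42. Afp had 3.25, Zmat1 1.98 and Jade2 1.93.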

How the results depend on the processing

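The count of called features in stimulated cells, 796, was 1865 with the replicate block, 1309 with the slide as a block, 0 on the 6 stimulated arrays alone with or without the replicate block, 2349 with the percentile over spots detected on all 12 arrays, 56 without the filter, 1498 and 1482 with detection required on all 12 or all 6 stimulated arrays, 1536 with trend and robust moderation, and 6 on slide 1 alone. Leaving out single arrays gave 48 to 1457, and leaving out control replicate 1 in both states 38. Of the alternatives added after seeing the data, outlier spots kept in the percentile gave 747, and the percentile over spots detected on all arrays with detection on all 12 gave 1771. The interaction count, 33, was 81 with the slide block and with quantile normalization, 10 with median scaling, 317 with the percentile over spots detected on all arrays (873 with detection on all 12), 123 with normexp, 0 without the filter, 266 and 262 with the stricter filters, 335 with trend, 111 with array weights and 0 on slide 1. Leaving out single arrays gave 0 to 125, and control replicate 1 in both states 0. The replicate block left it at 33. Sub1 kept its direction in every setting, with a change of -1.21 that did not pass on the 6 arrays alone (adjusted p = 0.137, or 0.0808 with the replicate block) or without the filter (adjusted p = 0.133), -0.56 as the mean of its probes (adjusted p = 0.248), -1.20 on slide 1 (adjusted p = 0.182) and -1.13 without control replicate 1 in both states (adjusted p = 0.113). It did not pass without knockout stimulated replicate 1 or 2 either (adjusted p = 0.0592 and 0.115). Without single arrays it lay between -1.34 and -1.13. Reversed values were -0.07 for Btg1, -0.18 for H2-Ob and -0.14 for H2-Eb2 under median scaling. Ccl19, a stromal marker with a change of -0.80 that was not called, had values from -1.07 to 0.74 with single arrays left out, 0.46 without the filter, without resting control replicate 1 or without resting knockout replicate 2, 0.74 without stimulated knockout replicate 2, and 0.21 without control replicate 1 in both states. Of the genes named by the rule, the replicate block changed the call of Nfkbie and Atp5g1 only, and 4 in place of 5 T cell markers passed with it, without Cd3g. Beyond these constructions, the cause was not tested. Signal over background limits the higher calls, 233 of 277 being dim on at least 1 control array.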

Other observations

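Several other members of the lists were called. Sub1 was the 1 called member of 29 tested coactivators and chromatin proteins, whose median was -0.30, and 25 of them had negative changes. The 26 detected on all 6 arrays had a median of -0.31, as did all features so detected. The median of the 29 ranged from -0.85 to 0.11 and kept its sign in 30 of 33 settings. Among 31 lysosome and autophagy genes Gusb, beta-glucuronidase, fell by 1.22 (4 passed with the replicate block).

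Further large increases were called in named genes outside most lists. Tgm2, a transglutaminase, had a change of 4.50, Retnla, a product of alternatively activated macrophages, 4.0, and Ccl24, an eosinophil chemokine, 3.66. F2r, a thrombin receptor, had 3.50, Cd63, a lysosomal tetraspanin, and Vcam1, an adhesion molecule of splenic macrophages, 3.41 each, and Ms4a4b, a gene of T and NK cells, 3.40. Retnla, Ccl24, F2r, Cd63 and Vcam1 were well above background on 1 of 3 control arrays, and Tgm2 and Ms4a4b on 2 of 3. Retnla, Ccl24 and F2r entered the test only because all 3 stimulated knockout arrays detected them.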
